A study of Mus musculus with 4 samples.

Results

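The genes that write and erase DNA methylation were followed through differentiation and Smarca4 knockdown in female mouse embryonic stem cells (mESCs). The set holds 9 of the 25965 genes listed in the deposited expression table, chosen by name and not by level. The maintenance genes are Dnmt1 and Uhrf1, the de novo genes are Dnmt3a, Dnmt3b and Dnmt3l, and the erasure genes are Tet1, Tet2, Tet3 and Tdg. All 9 passed the filter on low values, a mean log2 CPM (the log2 of reads relative to all reads of the library) of at least 0 over the 4 libraries, which 13264 genes passed.

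The study sequenced RNA from 4 libraries of F1 mESCs from a cross of FVB/NJ females with CAST/EiJ males. The day 0 library came from undifferentiated cells grown in 2i medium, which contains inhibitors of MEK and GSK3. The other libraries came from day 6, after the cells had been moved in steps into serum-containing DME HiHi medium without LIF. On day 2 these cells were transduced with a retroviral short hairpin RNA, and puromycin selection began on day 3. Nons carries a non-silencing control hairpin, and Smarca4.4 and Smarca4.6 carry 2 different hairpins against Smarca4, the gene of an ATPase of the BAF nucleosome remodelling complex. Day 0 and Nons therefore differ in time, medium, viral transduction and drug selection, and these cannot be told apart. Groups follow the sample titles, because a genotype label calls all day 6 cells, Nons included, a Smarcc knockdown, and calls the day 0 cells a non-silencing control. There is 1 library per group, so no difference can be set against replicate spread, and p-values are not given. Intervals are exact (Clopper-Pearson) 95% intervals from the reads. They cover counting error only and compare libraries, not conditions.

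DNA methylation in mammals is mostly carried by cytosines in CpG dinucleotides. After replication, UHRF1 recognises the half-methylated sites and recruits DNMT1, which copies the mark to the new strand. DNMT3A and DNMT3B methylate unmodified sites, and DNMT3L, which has no catalytic activity, binds and stimulates them. TET enzymes oxidise 5-methylcytosine, and the glycosylase TDG removes the more oxidised products so that base excision repair can restore cytosine. Mouse ES cells in 2i have little DNA methylation and gain it when they leave the naive state, through a stage at which de novo enzymes are abundant. Only RNA was measured here, and neither protein nor methylation was.

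Smarca4 was examined in every library before the methylation genes. Its level was 7.93 log2 CPM at day 0 and 7.84 in Nons, and the knockdown libraries had 7.04 (Smarca4.4) and 7.44 (Smarca4.6). Smarca4.4 held 57.3% of the Nons level and Smarca4.6 held 75.8%, so both were in the direction of their labels and the depletion was partial. The guide strands of the hairpins are shown because each knockdown rests on 1 hairpin, with the seed (bases 2 to 8) in capitals, 5′ to 3′.

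Nons: cTTACTCTcgcccaagcgagag

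Smarca4.4: tTTATTACtgtctgactccagt

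Smarca4.6: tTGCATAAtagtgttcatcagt

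The Smarca4.4 target lies at chr9:21703327-21703348 (mm10, plus strand) and occurs in 3 of the 4 coding transcripts of Smarca4. In the longest of these it falls in exon 34, in the 3′ UTR. The Smarca4.6 target lies at chr9:21670504-21670525 and occurs in 4 of the 4. In the longest of these it falls in exon 22, in coding sequence. The Nons guide had no complementary site in Smarca4. In 1 transcript of each methylation gene, the longest run complementary to a guide was 11 bases, between Smarca4.4 and Dnmt3a. Tet3, furthest from Nons with Smarca4.4, and Dnmt3l, furthest with Smarca4.6, had no match to either Smarca4 seed in their 3′ UTRs. Most genes have none, as 12.1% held a match to the Smarca4.4 seed and 9.3% to the Smarca4.6 seed. Off-target effects were not tested.

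Library totals ranged from 18599402 reads at day 0 to 47143739 in Smarca4.4, and the level of 3 reads, used as the floor, from 0.0636 to 0.161 CPM. The least read value of a methylation gene was 414 reads, for Tet2 in Smarca4.6. Of 8 markers of pluripotent cells, 7 were at least 2-fold lower in Nons than at day 0 and Pou5f1 was not. Their summed level was 4480 CPM at day 0 and 850 to 1120 CPM at day 6, where most came from Pou5f1. The 8 markers of mesenchymal and smooth muscle cells summed to 12.0 CPM at day 0, with 2 at 0 reads, and to 692 to 1088 CPM at day 6. Germ cell markers (4 genes) summed to 808 CPM at day 0, nearly all from Dazl, and to 78.4 to 114 CPM at day 6. Of these genes, 3 were higher in Nons than at day 0, and Dazl was lower. Trophoblast markers (4 genes) ranged from 22.2 to 87.7 CPM, with the highest sum at day 0, nearly all from Tfap2c. Of the 2 that passed the filter, Tfap2c was lower in Nons than at day 0 and Gata3 was higher, by 3.45. Blood markers (2 of 4 listed) ranged from 0 to 0.787 CPM, with Ptprc at 0 reads in every library. The 4 Y-linked genes looked up in these female cells had 0 reads at day 0, 106 in Nons, 156 with Smarca4.4 and 165 with Smarca4.6. The part of these other RNAs in the results was not tested.

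Between day 0 and Nons at day 6 the 9 genes moved in both directions. Both maintenance genes and all 3 TET genes were lower, all 3 de novo genes and Tdg were higher, and every counting interval excluded 0. By at least 2-fold, 2 of the 9 were higher (19.6% of the 13264 genes were) and 4 were lower (12.3% were). Counting intervals lay above 0 for 4 and below 0 for 5, against 42.8% and 40.1% of all genes. The median difference was -0.98, while that of all genes was 0.03. Centred on the autosomal median, Tet3 also passed 2-fold, at -1.03. In bulk RNA, fewer cells of a type and less RNA per cell cannot be told apart.

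**Figure D1:**
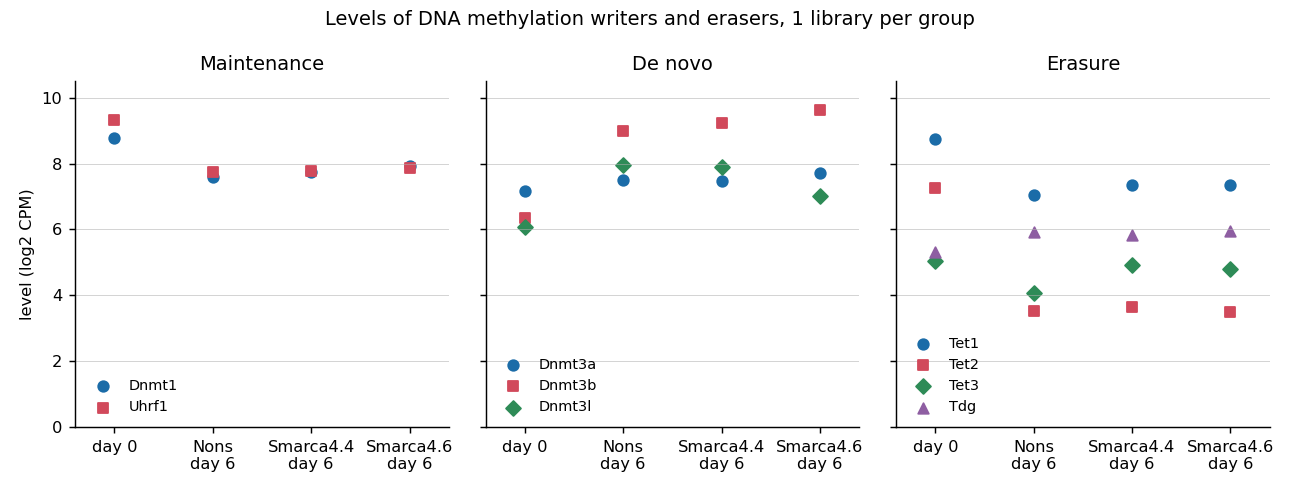
Level of each gene (log2 CPM, vertical axis) in the day 0, Nons, Smarca4.4 and Smarca4.6 libraries, in panels for maintenance, de novo and erasure genes; each point is 1 library. Dnmt3b goes from 6.34 at day 0 to between 8.99 and 9.63 at day 6, and Tet2 from 7.27 to between 3.50 and 3.65.

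Dnmt1 (chr9:20907206-20959888, minus strand), the maintenance methyltransferase, stood at 8.77 log2 CPM in the day 0 library, 7.60 in Nons, 7.73 with Smarca4.4 and 7.93 with Smarca4.6. Uhrf1 (chr17:56303321-56323486, plus strand), its recruiting factor, had 9.31, 7.73, 7.77 and 7.87 in the same order. For both genes the day 0 library was the highest and the 3 day 6 libraries lay close together. The difference of Nons from day 0 was -1.17 (-1.21 to -1.13) for Dnmt1 and -1.58 (-1.62 to -1.54) for Uhrf1, so that Nons held 44.4% and 33.5% of the day 0 level.

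Replication genes were also lower in Nons than at day 0, by unequal amounts. A DNA replication list of 14 genes, among them the clamp Pcna and the helicase subunits Mcm2 to Mcm7, was lower throughout. Its differences ranged from -2.17 to -0.06, with a median of -0.63, and 4 were at least 2-fold, beside 12.3% of all genes. The counting interval lay below 0 for all 14, against 40.1% of all genes. The list summed to 5039 CPM for day 0, 2952 for Nons, 3302 with Smarca4.4 and 3489 with Smarca4.6, which is the order of Dnmt1 across the libraries. The part of replication or of cycling cells in the levels of Dnmt1 and Uhrf1 was not tested.

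The promoters of the 9 genes were read after the differences of Dnmt1 and Uhrf1 had been seen. RefSeq (GRCm38.p6) gave 16 windows from 250 bases before to 50 after a start site. A motif bound by E2F factors, which drive genes of DNA replication, was searched as TTTCCCGC, TTTCGCGC, TTTGCCGC and TTTGGCGC on both strands. It occurred in a window of Dnmt1 and a window of Uhrf1, while other windows of both genes lacked it. No other gene of the set held it, including the TET genes, which were also lower in Nons than at day 0. Of 32851 promoters, 2.26% held it. A stretch of Dnmt1 and of Uhrf1 is shown, from the gene's own strand, with the motif in capitals.

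Dnmt1: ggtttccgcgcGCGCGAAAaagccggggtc

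Uhrf1: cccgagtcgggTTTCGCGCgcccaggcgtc

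The Dnmt1 stretch lies at chr9:20952824-20952853 on the minus strand, and its window held 2 matches, of which 1 is shown. The Uhrf1 stretch lies at chr17:56304117-56304146 on the plus strand. The motif begins 219 bases upstream of the start site in Dnmt1 and 185 bases upstream in Uhrf1. Of 11 replication genes with a window, 6 held the motif, against 2.6% of all 27025 genes with one. Each form of the motif contains a CpG, and these windows are rich in CpG. The median over genes of the highest CpG count was 26 for replication genes and 30 for the 9 genes, against 8 for all. The part of CpG content in the motif counts was not tested. A match describes letters and is not evidence of binding.

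Each de novo gene was higher in all day 6 libraries than at day 0. Dnmt3b (chr2:153649450-153687730, plus strand), a catalytic de novo enzyme, stood at 6.34 log2 CPM in the day 0 library, 8.99 in Nons, 9.23 with Smarca4.4 and 9.63 with Smarca4.6. The largest step was between day 0 and Nons, which exceeded it by 2.66 (2.58 to 2.73), or 6.31-fold. Among the 9619 genes with a mean log2 CPM of at least 3, 343 had a larger difference. Dnmt3l (chr10:78041947-78063622, plus strand), the non-catalytic partner, had 6.07, 7.95, 7.88 and 7.01. It was highest in Nons and Smarca4.4, and Smarca4.6 lay between these and day 0. Its difference of Nons from day 0 was 1.88 (1.79 to 1.96), or 3.68-fold. Dnmt3a (chr12:3806007-3914443, plus strand), the other catalytic enzyme, had 7.17, 7.49, 7.46 and 7.70, the narrowest range of the 3. Nons exceeded day 0 by 0.32 (0.26 to 0.38). Exons of Dnmt3a and Dnmt3l overlap those of Dnmt3aos and Aire on the opposite strand by 133 and 67 bases, and with the strand setting of the counting not stated, reads there cannot be assigned to either.

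Among the erasure genes, Tet2 (chr3:133463679-133544390, minus strand) stood at 7.27 log2 CPM in the day 0 library, 3.54 in Nons, 3.65 with Smarca4.4 and 3.50 with Smarca4.6. All day 6 libraries lay below day 0, between 3.50 and 3.65. The difference of Nons from day 0 was -3.73 (-3.87 to -3.60), 13.3-fold lower, and 34 of the 9619 genes had a lower difference. Tet1 (chr10:62804570-62899118, minus strand), an abundant TET gene of ES cells, had 8.73, 7.05, 7.35 and 7.36. It was also highest at day 0, and Nons held 31.1% of that level, a difference of -1.69 (-1.73 to -1.64). Tet3 (chr6:83362373-83441678, minus strand), best known for its action in the zygote and in neurons, had 5.06, 4.08, 4.92 and 4.81. Here Nons stood alone as the lowest library, with a difference from day 0 of -0.98 (-1.13 to -0.82). Tdg (chr10:82629828-82650799, plus strand) had 5.33, 5.92, 5.84 and 5.96, and its 3 day 6 libraries lay close together and above day 0. Nons exceeded day 0 by 0.59 (0.47 to 0.71), and 367 bases (6.83%) of the exons of Tdg overlap those of Glt8d2 on the opposite strand.

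The knockdown comparisons ask whether these genes depend on Smarca4 at day 6. Both use the same Nons library, so their values are given side by side and their likeness is not a result. None of the 9 genes differed from Nons by at least 2-fold with either hairpin. Of all genes, 0.882% were that much higher and 0.309% that much lower in Smarca4.4, and 1.03% and 0.799% in Smarca4.6. A smaller fold of 1.5, chosen after the values were seen, was passed upwards by Tet3 in Smarca4.4 (4.03% of all genes passed it upwards and 2.37% downwards). In Smarca4.6 it was passed upwards by Tet3 and Dnmt3b and downwards by Dnmt3l (5.68% and 3.83% of all genes). All 9 genes are expressed above a mean log2 CPM of 3, and among the 9619 such genes the upward share was 1.34% with Smarca4.4 and 2.63% with Smarca4.6, where the downward share was 1.89%. The 9 genes had a median difference of 0.11 with Smarca4.4 and 0.21 with Smarca4.6, and that of all genes was 0.04 and 0.06.

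At these depths many small differences exceed counting error. In Smarca4.4 the counting interval lay above 0 for 5 of the 9 genes and below 0 for 2 (34.4% and 24.3% of all genes). In Smarca4.6 it lay above 0 for 6 and below 0 for 1 (39.6% and 24.4% of all genes). Without replicates these intervals do not show how far libraries of 1 group differ. Markers of mesenchymal and smooth muscle cells summed to 1088 CPM in Nons, 811 with Smarca4.4 and 692 with Smarca4.6, mostly from Tagln. Of the 7 that passed the filter, 4 were lower than Nons and 3 higher with Smarca4.4. With Smarca4.6, 6 were lower and 1 higher. Acta2, a smooth muscle actin, had the largest difference from Nons, -1.03 and -1.83. The part of these markers in the differences of the 9 genes was not tested.

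**Figure D2:**
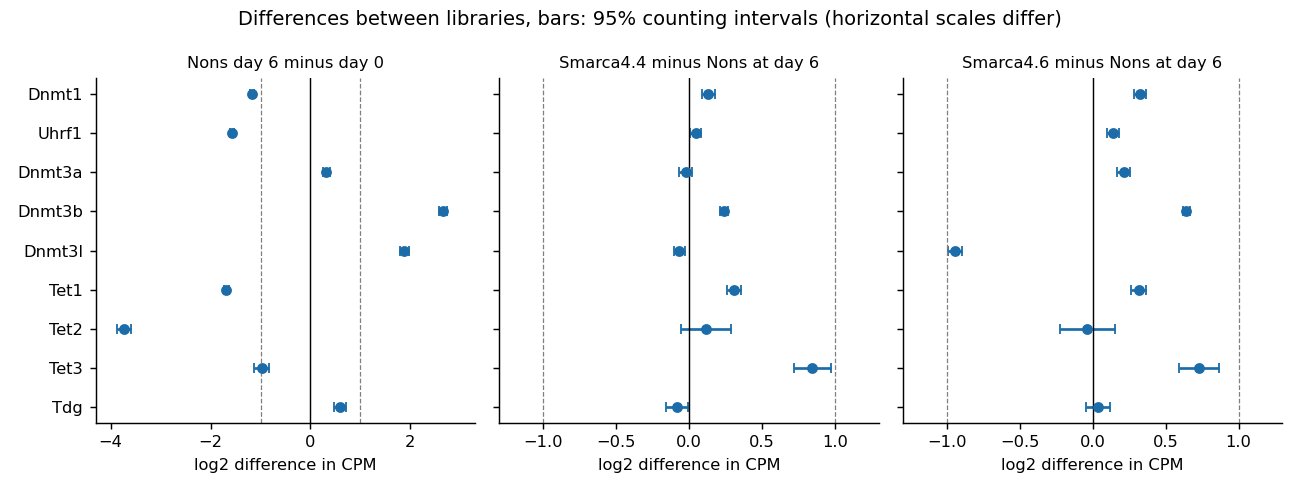
Difference of each gene (log2 CPM, horizontal axis) for Nons minus day 0, Smarca4.4 minus Nons and Smarca4.6 minus Nons; points are differences between 2 libraries, bars are 95% counting intervals, dashed lines mark 2-fold, and the horizontal scale of the left panel is wider. Against Nons, Tet3 lies at 0.84 and 0.73 and Dnmt3l at -0.07 and -0.94, with Smarca4.4 given before Smarca4.6.

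Of the 9 genes, Tet3 was the furthest above Nons with each hairpin. It had 16.9 CPM in Nons (774 reads), 30.4 CPM with Smarca4.4 (1431 reads) and 28.0 CPM with Smarca4.6 (1022 reads), beside 33.3 CPM at day 0 (619 reads). Both knockdown libraries thus lay between Nons and day 0. The excess over Nons was 0.84 (0.72 to 0.97) with Smarca4.4 and 0.73 (0.59 to 0.86) with Smarca4.6, and 31 and 95 of the 9619 genes had a larger one. The hairpins differed from each other by -0.12 (-0.23 to 0.0005, Smarca4.6 minus Smarca4.4), an interval that includes 0. The other TET genes did less. Tet1 exceeded Nons by 0.31 (0.26 to 0.36) with Smarca4.4 and by 0.32 (0.26 to 0.37) with Smarca4.6. Tet2 differed by 0.11 (-0.06 to 0.29) and -0.04 (-0.22 to 0.15), both within counting error. Tdg differed by -0.08 (-0.16 to -0.01) and 0.04 (-0.04 to 0.12).

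Dnmt3l separated the hairpins. It had 247 CPM in Nons, 236 CPM with Smarca4.4 and 129 CPM with Smarca4.6, beside 67.3 CPM at day 0. Smarca4.4 held 95.5% of the Nons level and Smarca4.6 held 52.0%. The differences from Nons were -0.07 (-0.10 to -0.03) and -0.94 (-0.99 to -0.89), and in Smarca4.6 31 of the 9619 genes had a lower one. Set directly against each other, Smarca4.6 minus Smarca4.4 was -0.88 (-0.93 to -0.83). At 1.5-fold it was the only gene of the 9 to differ between the hairpins (1.88% of all genes were that much higher in Smarca4.6 and 2.59% that much lower). Smarca4.6 is the hairpin with the smaller depletion of Smarca4.

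Dnmt3b, in contrast, was higher with both hairpins. It stood at 509 CPM in Nons, 602 CPM with Smarca4.4 and 795 CPM with Smarca4.6, with differences from Nons of 0.24 (0.22 to 0.27) and 0.64 (0.62 to 0.67). In Smarca4.6, 166 of the 9619 genes had a larger one. Smarca4.6 exceeded Smarca4.4 by 0.40 (0.38 to 0.43), so the libraries followed an order opposite to that of Dnmt3l. Dnmt3a was at the Nons level in Smarca4.4, -0.02 (-0.07 to 0.02), and above it in Smarca4.6 by 0.21 (0.17 to 0.26).

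The maintenance genes differed little from Nons. Dnmt1 exceeded it by 0.13 (0.09 to 0.17) in Smarca4.4 and by 0.32 (0.28 to 0.37) in Smarca4.6. For Uhrf1 the excess was 0.04 (0.005 to 0.09) and 0.14 (0.10 to 0.18). The replication list lay on the same side, with medians of 0.18 and 0.28, while those of all genes were 0.04 and 0.06. Of its 14 genes, 13 and 12 were higher, none by 2-fold. Their counting intervals lay above 0 for 10 and 12, against 34.4% and 39.6% of all genes.

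**Figure D3:**
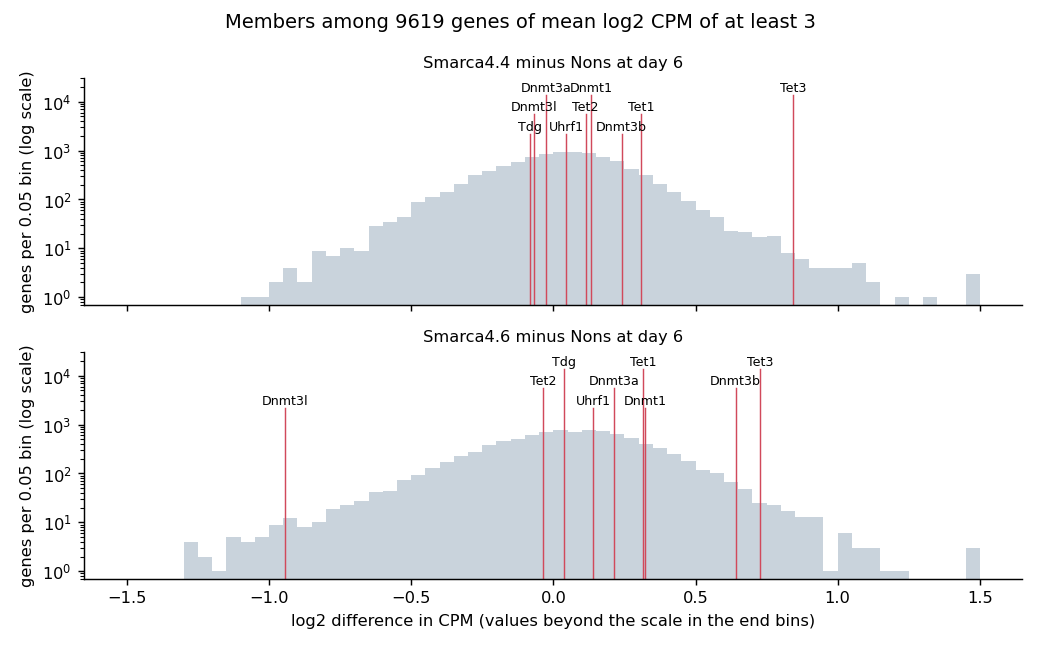
Distribution of the difference from Nons (log2 CPM, horizontal axis, bins of 0.05) over the 9619 genes with a mean log2 CPM of at least 3, for Smarca4.4 (top) and Smarca4.6 (bottom), with the number of genes on a log vertical axis and a line at each of the 9 genes. Tet3 lies far to the right in both, Dnmt3l far to the left for Smarca4.6 alone, and the other lines lie nearer the bulk.

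Levels of different genes were compared per length, as CPM per kb of annotated exon. At day 0 the order was Uhrf1 (149 CPM per kb), Dnmt1 (59.2), Tet1 (27.9), Dnmt3l (22.5), Dnmt3b (15.8), Tet2 (9.20), Dnmt3a (8.64), Tdg (7.47) and Tet3 (2.11). In Nons it was Dnmt3b (99.8 CPM per kb), Dnmt3l (82.8), Uhrf1 (49.8), Dnmt1 (26.3), Tdg (11.3), Dnmt3a (10.8), Tet1 (8.66), Tet3 (1.07) and Tet2 (0.693). Dnmt3b and Dnmt3l thus passed the maintenance genes, and Tet2 went from the sixth place to the last. Neighbours in the order were separated by their counting intervals in every library, except Tet1, Tdg and Dnmt3a in Smarca4.4 at 10.6 to 10.7 CPM per kb. Dnmt3b led in both knockdown libraries, and in Smarca4.6 Uhrf1 (54.9) stood above Dnmt3l (43.1). Some places depend on the length used. With the longest transcript in place of all exons, an alternative added after the values were seen, Dnmt3l led in Nons (136 CPM per kb against 118 for Dnmt3b), while Dnmt3b still led with each hairpin. Dnmt3l then also stood above Tet1 at day 0 (36.9 against 29.6) and above Uhrf1 in Smarca4.6 (70.6 against 65.2).

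**Figure D4:**
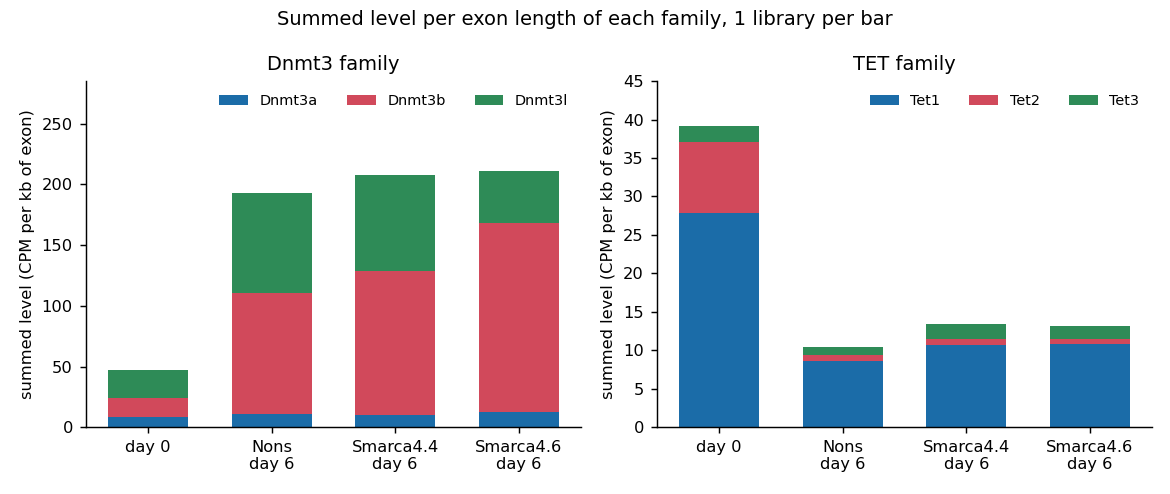
Summed level of the Dnmt3 family (left) and of the TET family (right) in CPM per kb of exon (vertical axis, from 0), 1 library per bar, with a colour for each gene. The Dnmt3 sum goes from 47.0 at day 0 to between 193 and 211 at day 6, and the TET sum from 39.2 to between 10.4 and 13.4.

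The Dnmt3 family summed to 47.0 CPM per kb for day 0, 193 for Nons, 207 with Smarca4.4 and 211 with Smarca4.6. Within it Dnmt3l made up 47.9%, 42.8%, 38.1% and 20.4%, and Dnmt3b 33.7%, 51.6%, 56.8% and 73.7%. The sum thus ranged little over the 3 day 6 libraries, while the share of Dnmt3l in Smarca4.6 was well below that in the others. With the longest transcript as length the share of Dnmt3l was 52.4%, 49.9%, 45.1% and 25.6% and that of Dnmt3b 26.5%, 43.3%, 48.5% and 66.6%, so that Dnmt3l was the larger of the pair in Nons. Per length, Dnmt3b exceeded Dnmt3a 1.83-fold (1.72 to 1.95) at day 0 and 9.25-fold (9.02 to 9.49) in Nons, then 11.1-fold (10.8 to 11.4) with Smarca4.4 and 12.4-fold (12.1 to 12.8) with Smarca4.6. The ratio of Dnmt3l to Dnmt3a was 2.60 (2.43 to 2.79), 7.68 (7.46 to 7.90), 7.45 (7.24 to 7.67) and 3.44 (3.32 to 3.57), so that Smarca4.6 lay nearest to day 0.

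The TET family summed to 39.2 CPM per kb for day 0, 10.4 for Nons, 13.4 with Smarca4.4 and 13.2 with Smarca4.6. Tet1 made up most of it in every library, from 71.1% at day 0 to 83.1% in Nons. Tet2 went from 23.5% at day 0 to between 5.11% and 6.65% at day 6, and Tet3 from 5.38% to between 10.3% and 14.4%. The ratio of Tet1 to Tet3 was 13.2 (12.2 to 14.4) at day 0, 8.08 (7.50 to 8.72) for Nons, 5.58 (5.27 to 5.90) with Smarca4.4 and 6.08 (5.69 to 6.50) with Smarca4.6. Uhrf1 exceeded Dnmt1 2.51-fold (2.44 to 2.59) at day 0, 1.89-fold (1.84 to 1.95) for Nons, 1.78-fold (1.73 to 1.83) with Smarca4.4 and 1.67-fold (1.62 to 1.72) with Smarca4.6.

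The wider pathway was read from lists of 44 genes, of which 43 passed the filter on low values. Between day 0 and Nons, 35 of the 43 were lower and 8 higher, 11 and 5 of them by at least 2-fold (12.3% and 19.6% of all genes), with a median of -0.41. None was 2-fold different in Smarca4.4 (median 0.06), and in Smarca4.6 (median 0.12) 1 was, Mat2a.

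All 7 maintenance partners were lower in Nons than at day 0, with a median of -0.70. Dppa3, which keeps UHRF1 off chromatin in oocytes and naive cells, differed by -2.66, and Lig1, the ligase of replication, by -1.28. In the knockdowns 7 and 6 of the 7 were higher than Nons, Cdca7l most, by 0.40 in Smarca4.4 and 0.73 in Smarca4.6. Counting intervals lay above 0 for 6 with each hairpin, against 34.4% of all genes in Smarca4.4 and 39.6% in Smarca4.6.

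Of 9 genes that guide de novo methylation or protect imprints, 8 were lower in Nons than at day 0. Prdm14, which represses Dnmt3 genes in naive cells, had the largest difference of these pathway lists, with 1358 reads at day 0 and 16 in Nons, -7.71 on the log2 scale. The imprint-protecting Zfp57 differed by -2.38 and its corepressor Trim28 by -1.16. In Smarca4.4 and Smarca4.6, Prdm14 had 28 and 15 reads, so its difference from Nons rests on few reads.

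Methyl-CpG readers went both ways. Zbtb4 and Mbd2 were higher in Nons than at day 0, by 1.97 and 1.38, and Zbtb38 was lower, with a difference of -1.64. None of these differed from Nons by 2-fold in a knockdown, and the largest difference was that of Zbtb33, 0.57 in Smarca4.4 and 0.43 in Smarca4.6.

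Of 14 partners of erasure and base excision repair genes, 13 passed the filter. The stress-induced Gadd45b was higher in Nons than at day 0 by 1.54, the glycosylase Neil1 by 1.14 and the polymerase Polb by 1.10, while the strand-break sensor Parp1 differed by -1.09. Cxxc4, a CXXC protein that binds TET2, fell under the filter: it had 0 reads at day 0 and 42 in Nons, at least 5.69-fold higher against a floor of 3 reads, and 74 and 81 reads in Smarca4.4 and Smarca4.6. In the knockdowns the largest difference among the 13 was that of Neil1 in Smarca4.4 (-0.56) and of Neil2 in Smarca4.6 (-0.70).

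Among 6 genes of cofactor supply, Mtr, Idh2 and Idh1 were lower in Nons than at day 0, with differences of -1.38, -1.36 and -1.27. Idh1 and Idh2 make 2-oxoglutarate, a cosubstrate of TET enzymes. Mat2a, which makes the methyl donor S-adenosylmethionine, stood at 7.91 log2 CPM in the day 0 library, 7.40 in Nons, 8.04 with Smarca4.4 and 8.43 with Smarca4.6. It exceeded Nons by 0.65 and 1.04, and both knockdown libraries also lay above day 0.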

How the data were processed

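RNA was measured in 4 libraries of female F1 mESCs, 1 per group. The authors made libraries with a TruSeq RNA kit, used trim_galore 0.4.4 on the paired-end reads, mapped to mm10 with strain SNPs masked by HISAT2 2.0.5 (tophat is named too), and quantified genes in SeqMonk (1.36.1 and 1.38.2). The strand setting is not stated. Values were deposited as log2 CPM (log2 rpm in SeqMonk) over both alleles.

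Reads per gene were recovered as whole multiples of 1 step per library (tolerance 0.05, with 0 reads written as 0.9 of a step). All values of up to 1000 reads were whole, as were at least 99.9% of all nonzero values. A count test would need replicates. Differences are between deposited log2 values. Reads are not independent molecules.

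Exon lengths are unions of GENCODE M21 exons (GRCm38, the assembly of mm10), from transcripts inside the deposited span, which is shorter than the annotated gene for Tet1 and Tet3. Coordinates are those of the deposited table. Seeds were searched in the transcript with the longest 3′ UTR. All 9 genes had RefSeq promoters.

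The members and lists were chosen with earlier results of these data known. The genes named are the 9, Smarca4, and of each list those 2-fold different in any comparison or, where none is, the largest difference. Of these, 1 gene is not reported here. Others (Pcna, Mcm2, Mcm7, Pou5f1, Dazl, Tfap2c, Gata3, Ptprc, Tagln, Acta2, Cdca7l, Zbtb33, Neil2 and Cxxc4) were named after their values were seen. The comparison of the hairpins with each other, the 1.5-fold rule, seeds and promoter motif were added. Alternatives were a pseudocount of 1 CPM, centring, other filters and transcript length. The scripts were tested on simulated reads, in Python 3.11.15 with scipy 1.17.1, numpy 2.4.6, matplotlib 3.10.9 and pandas 2.3.3.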

Additional observations from a re-analysis of the deposited data

How the results depend on the processing

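No paired analysis was possible because no group has more than 1 library, which also leaves no replicate to leave out. Of 40 alternative values, 24 stayed within 1.5-fold (counts), the spread of the 9 genes (medians) or the counting interval (ratios), 16 moved and 0 changed direction. Of 54 for single genes, 10 moved, all under centring on the autosomal median and by at most 0.06. Centring changed the sign of 1 difference that lay within counting error, Tdg in Smarca4.6, from 0.04 to -0.02. It put Dnmt3l in Smarca4.6 just past 2-fold, so that the count of genes 2-fold different there was 1 in place of 0, and Tet3 in Nons against day 0, where the count was 7 in place of 6. With the longest transcript as length, the ratio of Dnmt3b to Dnmt3a was 1.26 at day 0, 6.36 for Nons, 7.64 with Smarca4.4 and 8.56 with Smarca4.6, and that of Tet1 to Tet3 was 9.69, 5.93, 4.09 and 4.46. Uhrf1 to Dnmt1 became 2.38, 1.79, 1.68 and 1.57, and Dnmt3l to Dnmt3a became 7.33 for Nons, 7.11 with Smarca4.4 and 3.29 with Smarca4.6. The length is the same in every library, so the order of the libraries cannot change, but Dnmt3l then exceeded Dnmt3b in Nons. Depth limits Tet2 most, with 414 to 593 reads at day 6.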

Other observations

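For each of the 9 genes, the gene of the 13264 whose 3 differences (Nons minus day 0, and each hairpin minus Nons) lay nearest was looked up, by Euclidean distance on the log2 scale over 4 libraries. Nearest to Dnmt1 was Nup214 (distance 0.05) and to Uhrf1 was Acly (0.03), both well expressed. Tet1 was nearest to Zfp961 (0.03), Tdg to Tuba1c (0.03) and Dnmt3a to Dok1 (0.03). Tet3 was nearest to Gm4353 (0.02), Dnmt3b to 1700029I15Rik (0.11) and Tet2 to 2410076I21Rik (0.12), genes with a low mean log2 CPM of 0.44, 0.34 and 1.74. Dnmt3l had the most distant nearest gene, 2610528B01Rik, at 0.22, with a mean log2 CPM of 0.51. With 3 differences and this many genes, near neighbours are to be found for most patterns.

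Matches to a hairpin seed in 3′ UTRs were few. The Smarca4.4 seed had 2 in Dnmt3a, and the Smarca4.6 and Nons seeds had 1 each in Tet1 and in Tet2. Of 11297 genes with a 3′ UTR, 12.1%, 9.3% and 10.4% held a match to the Smarca4.4, Smarca4.6 and Nons seed.

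Promoter windows differed in CpG content. The Tet2 window (chr3:133544341-133544640, minus strand, GRCm38.p6) held 57 CpG, more than 99.8% of 32851 windows. The 3 windows of Dnmt3l held 3, 4 and 6, where the median over all windows was 7.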
